A study of Mus musculus with 80 samples.

Results

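The genes described here are the Wnt ligands, their receptors and co-receptors, the secreted inhibitors, and the core of the beta-catenin branch of the pathway, in muscle stem cells (MuSCs) of the extraocular muscles (EOM) and of the tibialis anterior (TA). They were chosen by name, with earlier results of these data known, as the gene symbols beginning Wnt, Fzd, Sfrp, Dkk or Rspo together with Lgr4 to Lgr6, Lrp5, Lrp6, Axin1, Axin2, Tcf7, Tcf7l1, Tcf7l2, Lef1, Ctnnb1 and Wif1. This gave 54 of the 25900 genes measured, which are 19 ligands, 10 frizzled receptors, 2 co-receptors, 9 secreted inhibitors, 4 R-spondins, 3 R-spondin receptors, the 2 Axin genes, beta-catenin and 4 nuclear factors.

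Donors were Tg:Pax7-nGFP mice aged 7 or 7.6 weeks, in which a transgene with Pax7 regulatory sequence makes a nuclear GFP that marks MuSCs for sorting. From each of 10 donors, 500 EOM and 500 TA cells were sequenced before grafting. Other EOM and TA cells of the same donor were placed into separate TA muscles, pre-injured with cardiotoxin, of a single immunodeficient Rag2-/-;γC-/- recipient. GFP-positive cells were sorted again from both grafts at day 21 by the labels, with as few as 9 cells in a library. The results text of the paper gives a longer interval, and its methods give a range that includes day 21. Both grafts therefore share a recipient, the type of host muscle, the kind of injury and a second sort, and they differ in the muscle of origin, while no pre-graft sample passed through a transplantation. The libraries that met the quality limits of the study were 8 EOM and 8 TA pre-graft, and 7 EOM and 7 TA post-graft, collected in 2 experiments.

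Wnt ligands are secreted lipid-modified proteins that bind a frizzled receptor, and in the canonical branch also Lrp5 or Lrp6. Receptor engagement stops the Axin-containing destruction complex from degrading beta-catenin, which then enters the nucleus and acts with Tcf and Lef factors on target genes, Axin2 among them. Other ligands, of which Wnt4, Wnt5a and Wnt11 are the usual examples, can act through frizzleds without beta-catenin, on cell polarity or calcium. Secreted frizzled-related proteins, Dickkopf proteins and Wif1 hold the signal back, and R-spondins raise it through the receptors Lgr4 to Lgr6. In adult muscle, Wnt signals have been linked to the quiescence, activation and self-renewal of MuSCs, and Wnt4 is known as a ligand that MuSCs themselves make.

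Levels are the deposited log2 RPM, where RPM are reads scaled to a common library size, or RPM on the linear scale, and reads are whole reads recovered from them. A gene was called higher or lower when limma gave an adjusted p under 0.05 and a log2 difference beyond 1. The pre-graft libraries held 3326270 to 14402975 total reads, with 963432 to 4169357 of them on genes, and the post-graft libraries 5243925 to 10526422, with 1357233 to 2899135 on genes. Mitochondrial genes took a mean of 4.84% of recovered gene reads in EOM and 14.5% in TA before grafting, and of 44.3% and 38.4% in the EOM and TA grafts. The median gene moved between groups, by -0.30 on the log2 scale in TA against EOM before grafting, by -1.48 in the EOM grafts against EOM pre-graft and by -1.09 in the TA grafts against TA pre-graft. Differences after grafting are therefore also given with each library centred on its median. The summed level of 10 MuSC marker genes was 12586 to 23188 RPM before grafting, with reads for all 10 in every library. It was 1246 to 14398 RPM in the EOM grafts and 214 to 9797 RPM in the TA grafts, with 8 of the 10 read in every library of each. Because RNA was taken from pools of cells, fewer cells of a type and less RNA per cell cannot be told apart.

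Most of the genes had no read in at least some libraries of each group. Before grafting, 17 of the 54 genes had reads in every EOM library and 13 in every TA library, while 13 and 11 had none in any. After grafting, 9 were read in every EOM graft and 8 in every TA graft. Rspo4, Wnt3a and Wnt9b had no read in any of the 30 libraries compared. Wnt7a had a single read in 1 TA library, and Wnt10b, also a ligand studied in muscle, had none before grafting and up to 8 reads in 3 of the grafts. Lef1, one of the nuclear partners of beta-catenin, had at most 6 reads in any library. R-spondins, Lgr6 and several inhibitors were sparse too. Rspo1 had up to 13 reads in a library and Rspo3 up to 6, and none of the 4 R-spondins reached the level needed for a test in any comparison. Lgr6 had up to 30 reads in 5 of the 30 libraries, Wif1 up to 36 in 5, and Sfrp2 up to 16 in 10. For genes at this depth an absence cannot be told from a low level, as 3 reads, the limit that a count of 0 allows, stand for different RPM in each library.

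**Figure D1:**
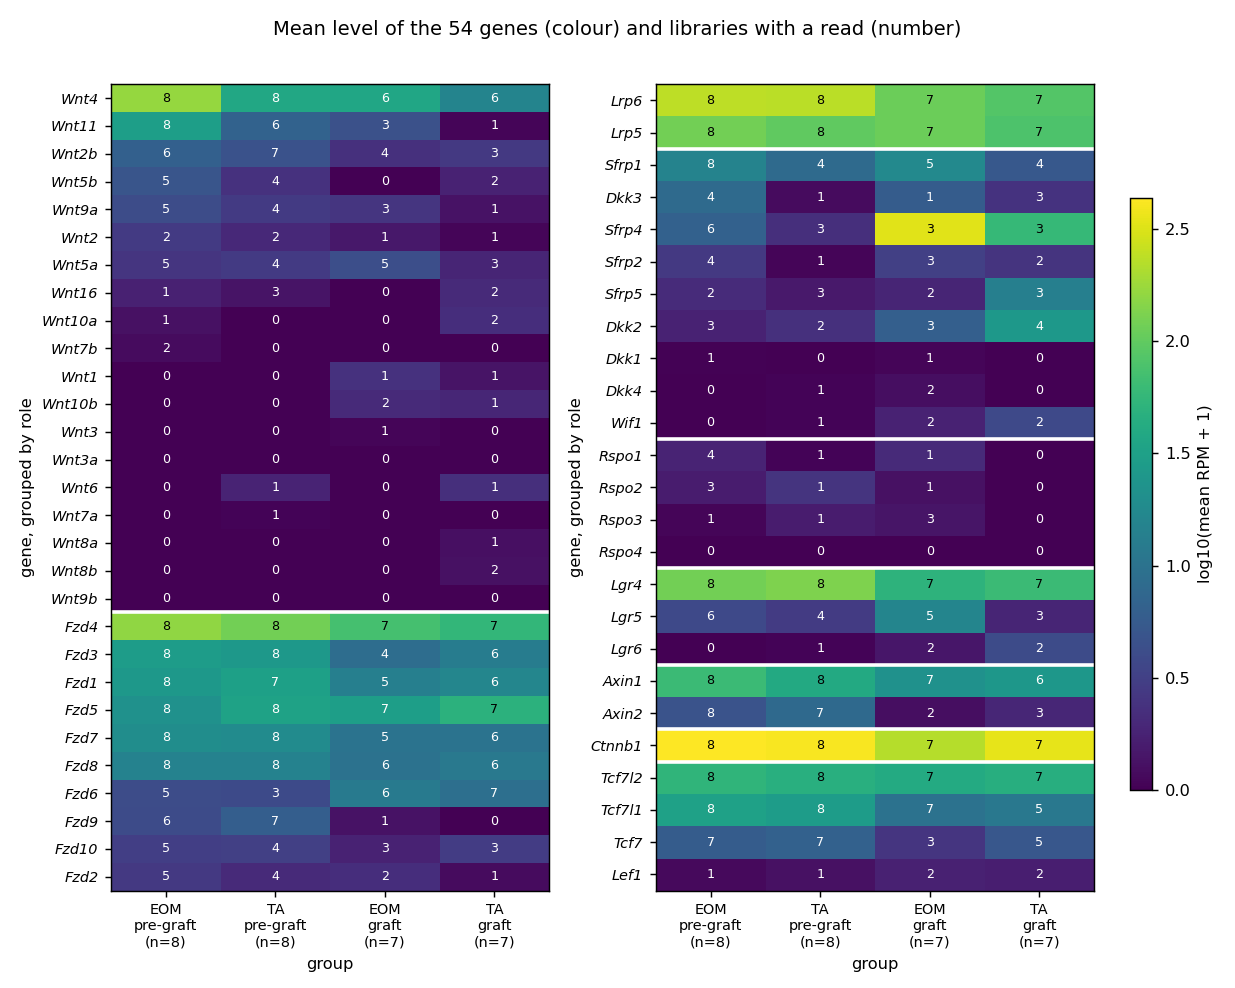
Mean level of each of the 54 genes (colour, log10 of mean RPM plus 1) in the 4 groups (columns), with the number of libraries holding a read written in each cell. Rows run from ligands to frizzled receptors on the left, and from co-receptors over inhibitors, R-spondins, Lgr receptors, Axins and beta-catenin to nuclear factors on the right. Wnt4 is the brightest ligand in every group, read in 8, 8, 6 and 6 libraries, and most other ligands are dark.

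Levels of different genes were compared per kilobase of annotated exon. On that scale beta-catenin (Ctnnb1) was the highest gene before grafting, at a mean of 83.7 RPM per kb ± 9.27 (SD, n = 8) in EOM and 78.9 ± 10.9 (SD, n = 8) in TA. Wnt4 followed in EOM at a mean of 39.3 ± 12.8 RPM per kb. The leading frizzled, Fzd4, was at 23.4 ± 6.02, and Lgr4 was at 20.0 ± 5.37. The spread of Fzd4 overlaps those of both Wnt4 and Lgr4. In TA the order of these genes differed, with Lgr4 at 22.8 ± 7.89, Fzd4 at 17.7 ± 4.12, Lrp6 at 17.1 ± 6.15 and Wnt4 at 8.85 ± 3.23 RPM per kb, where the first 3 do not differ beyond their spread. Wnt11 was the second ligand by its mean in both muscles, at 7.03 ± 2.72 in EOM and 1.41 ± 1.54 in TA. In TA its spread overlaps that of the next ligand, Wnt2b, at 0.873 ± 0.705.

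The comparison of EOM with TA before grafting asks which of these genes differ between MuSCs of head and limb muscles. Wnt4 and Wnt11 were lower in TA, 4.49-fold and 9.79-fold by the log2 fit, and no receptor, inhibitor or intracellular member passed the test. Of the 54 genes 28 had enough reads to be tested, and 2 were called lower in TA (7.14%), where 3.31% of all 13217 genes tested were called lower. None was called higher, against 1.26% of all genes. With libraries centred the same 2 were called lower (2.08% of all genes, and 1.77% higher), and edgeR called Wnt4 (1.45% of all genes, and 1.87% higher). The median difference of the 28 was -0.24 beside -0.30 for all genes tested, with 18 of the 28 above that median.

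Because these ligands were the members called, the sequence before their start sites is shown, in the genome build GRCm38.p6 and from RefSeq starts. The set of promoters used was matched to 36 of the 54 genes. Each run is the 250 bases before a start site on the plus strand, with matches to CTTTGAT on either strand (ATCAAAG on the printed one), the letters Tcf and Lef factors are known to favour, in capitals. Wnt4 lies on chromosome 4, Wnt11 on chromosome 7, and the second start listed for Wnt11 is inside the gene as the deposited table places it (chr7:98835112-98855195).
Wnt4, chr4:137277385-137277634: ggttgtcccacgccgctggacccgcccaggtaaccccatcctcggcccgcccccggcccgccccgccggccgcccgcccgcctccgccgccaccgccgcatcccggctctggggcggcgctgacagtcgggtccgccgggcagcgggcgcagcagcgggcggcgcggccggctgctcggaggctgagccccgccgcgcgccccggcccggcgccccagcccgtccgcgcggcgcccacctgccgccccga
Wnt11, first start, chr7:98834862-98835111: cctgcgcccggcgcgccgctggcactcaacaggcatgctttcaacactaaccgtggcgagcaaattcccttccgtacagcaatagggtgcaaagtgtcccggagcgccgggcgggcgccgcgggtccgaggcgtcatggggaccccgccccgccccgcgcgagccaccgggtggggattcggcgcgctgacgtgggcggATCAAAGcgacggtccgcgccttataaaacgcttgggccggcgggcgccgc
Wnt11, second start, chr7:98838595-98838844: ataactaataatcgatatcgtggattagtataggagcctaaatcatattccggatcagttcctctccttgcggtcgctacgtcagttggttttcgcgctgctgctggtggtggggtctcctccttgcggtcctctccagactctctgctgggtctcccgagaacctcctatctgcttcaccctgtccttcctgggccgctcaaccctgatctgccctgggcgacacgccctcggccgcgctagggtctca

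The window of Wnt4 is 85.2% G and C and holds no match. The first window of Wnt11 is 70.8% G and C and holds 1 match, which begins 51 bases before the start, and its second window is 56.8% G and C with none. These letters stood in 3.21% of 32851 windows of the same length before RefSeq starts, and among the members Wnt11 and Wnt5b had them. A match describes the letters only.

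Wnt4 ranged from 107 to 280 RPM in the 8 EOM libraries, with a median of 154 RPM from 218 to 533 reads each. In the 8 TA libraries it ranged from 23.1 to 65.0 RPM, with a median of 31.6 RPM from 26 to 120 reads. The highest TA library lay below the lowest EOM library, which held for 1.81% of all genes tested in this direction and for no other member. The log2 levels were 7.31 ± 0.42 (SD, n = 8) and 5.14 ± 0.48 (SD, n = 8), and the difference was -2.17 (SE 0.23), with an adjusted p of 1.19e-06 by limma. Wnt4 was lower in TA in 7 of the 7 donors with both libraries, with log2 differences of -2.43 to -1.79. The difference was -1.90 in Experiment 1 alone and -2.16 in Experiment 2 alone.

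Wnt4 also took most of the ligand RNA in either muscle. It held 68.5 to 85.0% of the RPM of all 19 ligands in EOM (median 77.7%) and 49.6 to 88.9% in TA (median 67.2%). The summed level of the ligands was 156 to 330 RPM in EOM and 35.6 to 73.1 RPM in TA, without overlap, in which Wnt4 is included.

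Wnt11, a ligand of the branch without beta-catenin, ranged from 14.3 to 50.1 RPM in EOM (median 27.9, 33 to 93 reads). In TA it ranged from 0 to 15.8 RPM (median 3.04), with 0 reads in the libraries of mice 1 and 3 of Experiment 2 and 39 in that of mouse 6. Every EOM library had reads for it, while the highest TA library reached into the EOM range. The log2 difference was -3.29 (SE 0.72), with an adjusted p of 0.00565 by limma, and 7 of 7 donors were lower in TA. It was -2.95 in Experiment 1 alone. The difference in Experiment 2 alone was -3.27 with an adjusted p of 0.0699, and edgeR gave -2.17 with an adjusted p of 0.0666. With the libraries that the study left out, limma gave -3.39 with an adjusted p of 0.0531, so that this call, unlike that of Wnt4, was lost in some alternatives.

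Markers of Schwann cells and oligodendrocytes were also higher in part of the EOM libraries, at a summed 53.2 to 4018 RPM over 8 genes beside 26.2 to 549 RPM in TA, where Mobp had no read. The EOM libraries with the least of these markers, 53.2, 83.6 and 89.5 RPM, had Wnt4 at log2 7.17, 8.13 and 7.04. Their Wnt11 stood at log2 4.53, 5.18 and 4.58. The highest TA level was log2 6.02 for Wnt4 and 3.98 for Wnt11. The TA library with the most of these markers, 549 RPM, was that of mouse 6 of Experiment 2. It was also the highest TA library for Wnt11 and for Sfrp1. The summed level of 8 myofibre markers was at most 115 RPM in EOM and 183 to 488 RPM in TA, without overlap. That of 8 endothelial markers was 97.1 to 778 and 15.6 to 2236 RPM, and that of 6 mural cell markers 26.9 to 455 and 41.3 to 845 RPM. The part of any of these cells in the differences was not tested.

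**Figure D2:**
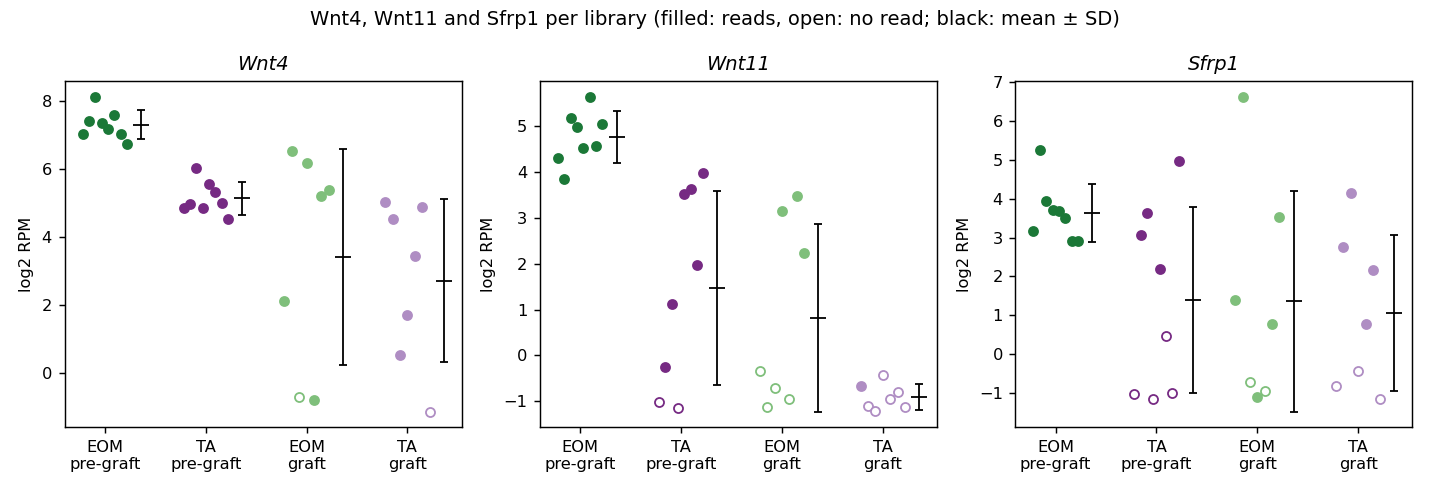
Log2 RPM of Wnt4, Wnt11 and Sfrp1 (vertical axes) in each library of the 4 groups, with filled points for libraries with reads, open points for libraries without a read, and bars for the mean and SD. All 8 TA pre-graft points of Wnt4 lie below the 8 EOM pre-graft points, and each of the 3 genes has grafts of both origins without a read.

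The other ligands tested did not pass. The differences were -1.19 (SE 0.81) for Wnt5b, -0.96 (SE 0.83) for Wnt9a, 0.15 (SE 0.85) for Wnt2b and 0.06 (SE 0.75) for Wnt5a. Among secreted inhibitors, Sfrp1, which binds Wnt proteins outside the cell, had 7.52 to 37.8 RPM in all 8 EOM libraries and 0 to 31.2 RPM in TA, where 4 of 8 libraries had no read. Of the other TA libraries, 3 reached into the EOM range, that of mouse 6 of Experiment 2 the highest. The difference of -2.23 (SE 0.82) had an adjusted p of 0.0977. Without the library of mouse 6 Sfrp1 was called lower in TA, at -2.74 with an adjusted p of 0.0308. Dkk3 had reads in 4 EOM libraries, up to 135, and 1 read in TA, and was too low to test here.

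No receptor passed the test between the muscles. All 10 frizzleds were tested, with differences from -0.59 (SE 0.70) for Fzd2 to 1.08 (SE 0.78) for Fzd9, and for several of them the errors leave room for differences beyond 2-fold. Fzd4, the highest of them, ranged from 93.6 to 217 RPM in EOM and from 90.3 to 155 RPM in TA. Its difference was -0.39 (SE 0.18), with an adjusted p of 0.196. The co-receptor Lrp6 had a median of 224 RPM in EOM, and of 237 RPM in TA with a wider spread, a difference of -0.10 (SE 0.20), and Lrp5 differed by -0.26 (SE 0.19). The ranges of each of these genes overlapped in the 2 muscles.

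Downstream of the receptors, Ctnnb1 was among the steadiest members, at 369 to 522 RPM in EOM and 351 to 506 RPM in TA, with a difference of -0.09 (SE 0.12). Axin1, a scaffold of the destruction complex, differed by -0.63 (SE 0.27, adjusted p 0.146), and Axin2, its relative that Wnt signalling induces, by 0.64 (SE 0.76), from at most 27 reads in a library. Lgr4 differed by 0.16 (SE 0.21). The nuclear factors Tcf7l2, Tcf7l1 and Tcf7 differed by -0.23, -0.70 and 0.29, with SEs of 0.26, 0.49 and 0.83. None of these passed the test, and for Axin1, Axin2, Tcf7 and Tcf7l1 the errors leave room for differences beyond 2-fold.

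A wider list of 51 pathway genes, without the members above, was counted beside them. Of these, 43 were tested, and 1 was called higher and 1 lower in TA, which is near the shares of all genes given above for this comparison. Ccnd1, the gene of cyclin D1 and a common target of beta-catenin among other inputs, was at 9.02 to 49.7 RPM in EOM and 57.5 to 443 RPM in TA, so that the groups did not overlap, as for 0.477% of all genes with TA higher. It was higher in TA by 2.72 (SE 0.42, adjusted p 0.000165). Ror1, a surface receptor for Wnt5a, ranged from 142 to 379 RPM in EOM and from 74.1 to 150 RPM in TA. It was called lower in TA (SE 0.20, adjusted p 0.00224) just past the limit of size, and at -0.76 it missed the limit of size with each library centred. The secretion genes Porcn and Wls, and Myc among the targets, were not called.

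The next comparisons ask how the genes changed when MuSCs of either muscle passed through a TA host. In the EOM grafts Wnt4 and Wnt11 fell below their pre-graft levels by more than the median gene did, and Fzd5, Fzd6 and Lrp5 stood above it. In the TA grafts Fzd5 was the single member called once the libraries were centred. As deposited, 13 of 31 members tested were called lower in EOM grafts (41.9%), beside 55.8% of all 13094 genes tested, and 7 of 27 in TA grafts (25.9%), beside 30.9% of 13076. No member was called higher as deposited in either, where 3.51% and 3.79% of all genes were. Whether the members' shares differ from those of all genes was not tested. The members' median change, -1.30 in EOM and -1.01 in TA, lay near that of all genes, -1.48 and -1.09.

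With each library centred on its median, 2 of 31 members were called lower (6.45%; 4.84% of all genes) and 3 higher (9.68%; 6.65% of all genes) in the EOM grafts. In the TA grafts 0 of 27 were called lower (5.68% of all genes) and 1 higher (3.70%; 7.67% of all genes). These shares are near those of all genes. By edgeR 3 members were called higher (6.93% of all genes) and none lower (2.90%) in the EOM grafts, and 4 higher (5.98%) and 2 lower (3.07%) in the TA grafts. Groups were apart for 3 members in EOM, all lower in the grafts (11.1% of all genes), and for none in TA (4.97% of all genes lower). Markers of other cells were summed in the same libraries. The summed level of 8 endothelial markers was 15.6 to 2236 RPM before grafting and 182 to 6472 RPM after it, all 8 with reads in every graft, with medians of 223 and 2879 RPM in EOM and 363 and 4077 RPM in TA, and that of 6 mural cell markers was 26.9 to 845 and 75.8 to 5037 RPM, with medians of 140 and 1816 RPM in EOM and 342 and 2471 RPM in TA. Myofibre markers were at 108 to 1422 RPM in EOM grafts and 119 to 744 RPM in TA grafts, and Schwann and oligodendrocyte markers at 8.14 to 280 and 4.66 to 970 RPM, with medians of 63.1 and 37.9 RPM beside 702 and 36.4 RPM before grafting. The sum of 10 fibro-adipogenic markers had medians of 2752 RPM in EOM grafts and 4110 RPM in TA grafts, beside 5341 and 4088 RPM before grafting. The part of any of these cells in the changes below was not tested.

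**Figure D3:**
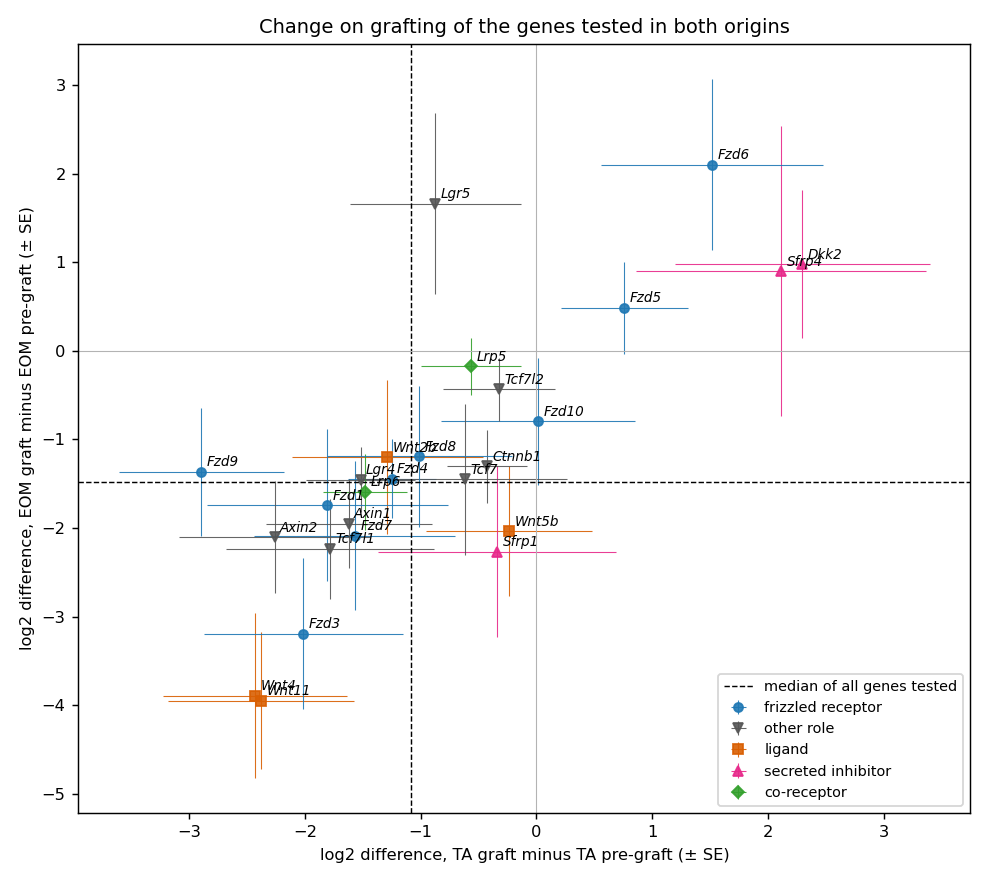
Log2 difference between grafts and pre-graft libraries for the 26 members tested in both origins, TA on the horizontal and EOM on the vertical axis, as deposited, with bars of 1 SE. Dashed lines mark the median of all genes tested, and 11 members lie above both lines and 9 below both. Wnt4 and Wnt11 lie lowest on the EOM axis, and Fzd5, Fzd6, Dkk2 and Sfrp4 lie above 0 on both.

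Wnt4 in the EOM grafts had 5, 184, 0, 1, 43 and 80 reads in mice 1 to 6 of Experiment 2 and 153 in mouse 4 of Experiment 1. This amounted to 0 to 92.9 RPM, with a median of 36.8 RPM, and every graft lay below the lowest EOM pre-graft library, at 107 RPM. In the same order of grafts the MuSC markers summed to 4920, 8911, 1246, 1348, 4284, 3075 and 14398 RPM. Their median went from 16427 RPM before grafting to 4284 RPM after it in EOM, and from 17848 to 3222 RPM in TA. The part of the MuSC share in the level of Wnt4 was not tested. The change was -3.89 (SE 0.93, adjusted p 0.00257) as deposited and -2.64 (adjusted p 0.0484) with libraries centred. As deposited 6 of 6 donors fell, with log2 changes of -7.97 to -0.87, beside -1.48 for the median gene. Tests on recovered reads gave -1.30 in edgeR with an adjusted p of 0.245 and -1.25 in DESeq2 with an adjusted p of 0.212, so the size and the call depend on the test used.

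Wnt4 in the TA grafts ranged from 0 to 32.8 RPM (median 10.8), where the pre-graft libraries ranged from 23.1 to 65.0 RPM. The change was -2.43 (SE 0.79, adjusted p 0.0230) as deposited, where 6 of 7 donors fell, and -1.53 (adjusted p 0.186) with libraries centred. On recovered reads it was smaller and not called, at -0.60 (adjusted p 0.640) in edgeR and -0.49 (adjusted p 0.690) in DESeq2. Experiment 2 alone gave -1.84 with an adjusted p of 0.133. The share of Wnt4 in ligand RPM was 6.67 to 90.6% in the 6 EOM grafts with any ligand read (median 65.0%) and 0 to 95% in the 7 TA grafts (median 80.7%), so that it was the leading ligand in most grafts and not in each.

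Wnt11 was read in 3 of 7 EOM grafts, at 9 to 19 reads and at most 11.1 RPM, below the lowest EOM pre-graft library. It fell by 3.95 (SE 0.77, adjusted p 0.000798) as deposited and by 2.70 (adjusted p 0.0198) with libraries centred. As deposited it fell in 6 of 6 donors, with log2 changes of -5.48 to -1.11, beside -1.48 for the median gene. Here too the tests on recovered reads gave a smaller change and no call, at -1.91 (adjusted p 0.213) in edgeR and -1.84 (adjusted p 0.114) in DESeq2. The TA grafts held a single Wnt11 read among 7 libraries, beside 75 in the 8 TA pre-graft libraries, a ratio of 63.9 (95% exact interval 11.1 to 2555, counting error only) that rests for 39 of its reads on mouse 6 of Experiment 2. As deposited the TA change was -2.38 (SE 0.81, adjusted p 0.0268), and -1.48 (adjusted p 0.230) with libraries centred. On recovered reads it was larger and called, at -4.62 (adjusted p 0.0390) in edgeR, and DESeq2 called it too. With the donor as a block its adjusted p was 0.0671, and the call was also lost without the TA pre-graft library of mouse 4 of either experiment.

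Of the low ligands, Wnt5b, a relative of Wnt5a, had 76 reads over 5 of 8 EOM pre-graft libraries and none in 7 EOM grafts, at least 2.05-fold lower against 3 reads per library. It was named after its values were seen, and 2 EOM graft libraries that the study left out had 17 and 24 reads of it. Wnt5a itself had reads in 5 of 7 EOM grafts, up to 13, and in 3 of 7 TA grafts, up to 5. Its change in the EOM grafts was 0.98 (SE 0.78, adjusted p 0.268).

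Fzd5, a frizzled that can signal through beta-catenin, kept its RPM level while the median gene fell. It ranged from 5.04 to 31.2 RPM in EOM pre-graft libraries and from 8.55 to 52.3 RPM in EOM grafts, and from 3.83 to 57.6 RPM (median 33.4) in TA pre-graft libraries and up to 85.4 RPM (median 43.3) in TA grafts. The groups overlapped in both origins. As deposited the changes of 0.49 (SE 0.52) in EOM and 0.76 (SE 0.55) in TA did not pass. With libraries centred Fzd5 was called higher in both, by 1.74 (adjusted p 0.0303) and 1.66 (adjusted p 0.0188), and likewise by edgeR (1.61 and 1.34) and by DESeq2 (1.75 and 1.46). With the libraries that the study left out, the EOM change as deposited was -0.11. Fzd5, Fzd6 and Fzd3 were named after their values were seen.

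Fzd6, a frizzled known from planar cell polarity, was read in 5 of 8 EOM libraries before grafting and in 6 of 7 EOM grafts, at up to 35.1 RPM. Its change in the EOM grafts had an adjusted p of 0.0629 as deposited, and was 3.35 (adjusted p 0.0322) with libraries centred. DESeq2 called it and edgeR did not, at 3.12 with an adjusted p of 0.0912. In TA the change of Fzd6 was 1.52 (SE 0.96), and 2.41 (adjusted p 0.0853) once centred. Lrp5 had 68.5 to 161 RPM in EOM pre-graft libraries and 45.4 to 194 RPM in the EOM grafts, and changed by -0.17 (SE 0.32) as deposited but by 1.08 (adjusted p 0.0175) with libraries centred. Its direction flips because centring moves every gene of the comparison by the same amount, and it lay 1.30 above the median gene as deposited. On recovered reads it was called higher too, at 1.01 (adjusted p 0.0201) in edgeR and 1.12 (adjusted p 0.00179) in DESeq2. It was not called when libraries were scaled without mitochondrial genes. Lrp5 in the TA grafts changed by -0.56 (SE 0.43) as deposited and by 0.33 with libraries centred, neither called.

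Of the other receptors, Fzd4, Lrp6 and Lgr4 were called lower in both origins as deposited and in neither with libraries centred. Fzd4 changed by -1.44 (SE 0.44) in EOM and -1.25 (SE 0.38) in TA, and by -0.19 and -0.36 with libraries centred. Lrp6 changed by -1.59 (SE 0.43) and -1.48 (SE 0.36), and by -0.34 and -0.59 once centred. Lgr4 changed by -1.45 (SE 0.37) and -1.52 (SE 0.47), and by -0.20 and -0.62 once centred.

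Fzd7, the receptor studied with Wnt7a in muscle, was called lower in EOM grafts as deposited, at -2.08 (SE 0.84), but kept that call in 1 of 10 alternatives (log2 of RPM plus 1). On recovered reads its change was -0.02 in edgeR and 0.070 in DESeq2. With the donor as a block its adjusted p was 0.0661, and the call was lost without any of 8 of the 15 libraries. Fzd3 was called lower there too, at -3.19 (SE 0.85, centred -1.94 with an adjusted p of 0.0975), but not by edgeR, at -1.03 with an adjusted p of 0.509. In TA it was not called, at -2.01, though it was with the experiment as a covariate, at -2.23 with an adjusted p of 0.0441, or without the TA graft of mouse 5 or of mouse 6 of Experiment 2. Fzd1 was not called in either origin, at -1.74 (SE 0.86) and -1.81 (SE 1.04), but without the TA pre-graft library of mouse 3 of Experiment 2 it was called in TA, at -2.58 with an adjusted p of 0.0281, and without the EOM graft of mouse 1 of Experiment 2 in EOM, at -2.16 with an adjusted p of 0.0336. Fzd9 had 72 reads over 7 of 8 TA pre-graft libraries and none in 7 TA grafts, at least 2.92-fold lower against 3 reads per library, while a TA graft left out by the study had 11. It was named after its values were seen.

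Among the intracellular members, Ctnnb1 in the EOM grafts ranged from 25.2 to 378 RPM, with the lowest value in mouse 2 of Experiment 2. It changed by -1.30 (SE 0.41, adjusted p 0.0121) as deposited, by -0.05 with libraries centred and by 0.20 in edgeR. The change as deposited lay 0.18 above that of the median gene. Its median in the TA grafts was 276 RPM, with up to 676 RPM, and it changed by -0.43 (SE 0.35), or by 0.47 with libraries centred, neither called. Without the EOM graft of mouse 2 the EOM change was -0.84, under the limit of size.

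**Figure D4:**
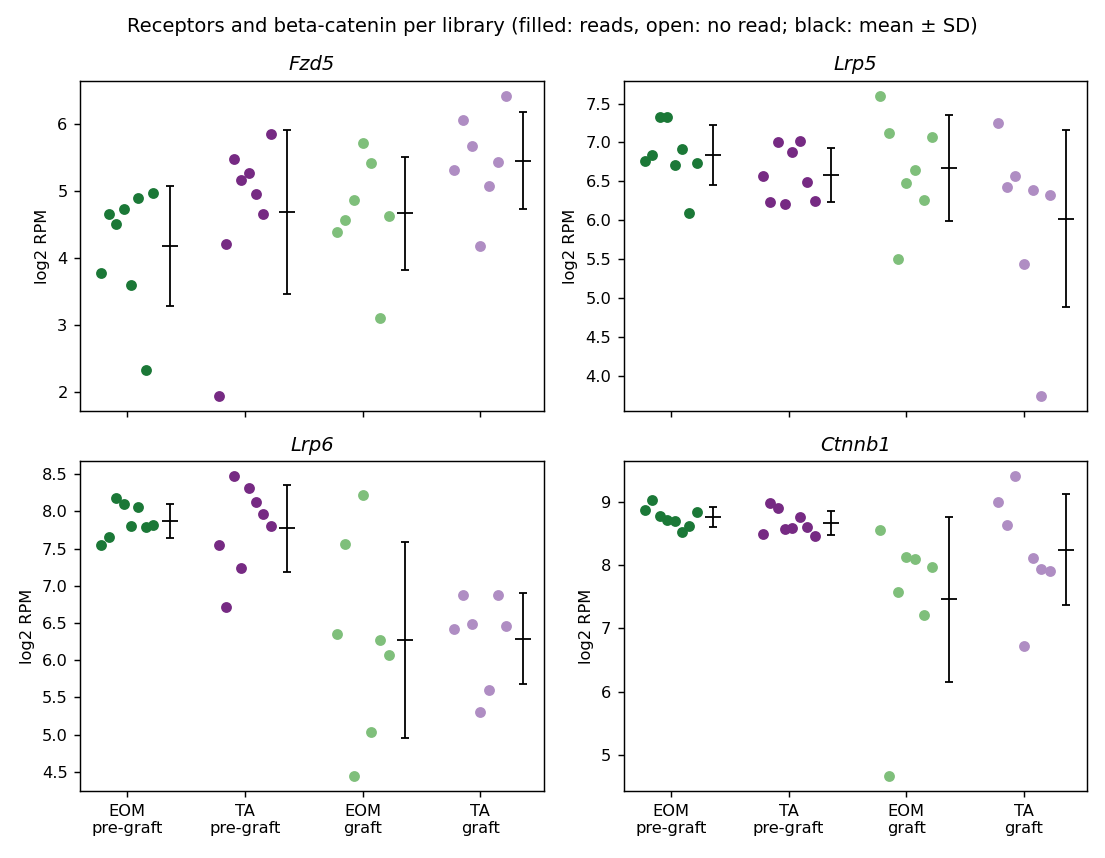
Log2 RPM of Fzd5, Lrp5, Lrp6 and Ctnnb1 (vertical axes) in each library of the 4 groups, with bars for the mean and SD. Every library had reads for these 4 genes. Lrp6 falls from a mean of 7.87 and 7.77 before grafting to 6.28 and 6.29 after it, while the Fzd5 means are 4.18 and 4.69 before and 4.67 and 5.45 after.

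Axin2, often read as a report of canonical signalling, had at most 27 reads in any library. Its reads were 62 in the 8 EOM pre-graft libraries and 3 in the 7 EOM grafts, a ratio of 13.6 (95% exact interval 4.45 to 67.8, counting error only). The changes, -2.10 (SE 0.64) in EOM and -2.26 (SE 0.82) in TA, were called as deposited and not with libraries centred, at -0.85 and -1.37. Neither was called with the donor as a block, at adjusted p of 0.0775 and 0.0597, and the TA call was lost without any of 7 of the 15 libraries. Axin1 changed by -1.95 (SE 0.50) in EOM, called as deposited but not with libraries centred or by edgeR or DESeq2, and by -1.62 (SE 0.72) in TA, not called, though it was with all libraries, those that failed quality limits included, or without the TA graft of mouse 2 or of mouse 6 of Experiment 2. Tcf7l1, which mostly acts as a repressor, changed by -2.23 (SE 0.56) in EOM, with every graft below every pre-graft library, and by -0.98 once centred, not called. With the donor as a block its adjusted p was 0.0527. Tcf7l2 changed by -0.43 (SE 0.36) and -0.32 (SE 0.48) as deposited and by 0.82 and 0.57 with libraries centred, a change of sign that the common shift of all genes gives, and was not called on either scale.

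For several secreted inhibitors a few grafts held most of the reads. Sfrp4 had 2341 reads, or log2 11.00, in the EOM graft of mouse 1 of Experiment 2 and 476 in that of mouse 2, and at most 1 in the other 5. Among TA grafts it had 380, 91 and 74 reads in 3 libraries and none in 4. In those EOM grafts the summed level of 10 fibro-adipogenic markers was 17871 and 5814 RPM, and in the other EOM grafts 1091 to 5110 RPM. For TA grafts with Sfrp4 reads it was 1200, 1807 and 4110 RPM, and in the others 1814 to 6502 RPM. Before grafting this sum was 3480 to 6802 RPM in EOM and 3076 to 5954 RPM in TA, so that 5814 RPM lies within the EOM pre-graft range. The part of such cells was not tested. The changes of Sfrp4, 0.90 (SE 1.64) in EOM and 2.12 (SE 1.25) in TA, did not pass in limma, whereas edgeR called it higher in both, with adjusted p of 0.0175 and 0.00959. With a library left out, the limma change ran from -0.58 to 1.46 in EOM and from 1.10 to 2.67 in TA. The value of -0.58 was without the EOM graft of mouse 1 of Experiment 2.

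Dkk2, an antagonist at Lrp5 and Lrp6, had 197, 113, 21 and 8 reads in 4 of 7 TA grafts and none in 3, beside 17 and 6 reads in 2 TA pre-graft libraries. Its change was 2.30 (SE 1.10, adjusted p 0.0984) by limma, and edgeR called it higher, at 4.56 with an adjusted p of 0.0473. Without the TA graft of mouse 2 or of mouse 4 of Experiment 2 limma called it too, with an adjusted p down to 0.0435. Sfrp5 had up to 95 reads in 3 TA grafts and changed by 1.66 (SE 0.98, adjusted p 0.172) by limma, and by 5.13 (adjusted p 0.0363) in edgeR. Sfrp1 changed by -2.26 (SE 0.96, adjusted p 0.0460) in the EOM grafts, where edgeR gave 1.03. This call was lost when any of 13 of the 15 libraries was left out, and with the donor as a block, at an adjusted p of 0.130. Sfrp4 and Sfrp5 were named after their values were seen.

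Of the wider list, 24 of 41 genes tested were called lower in the EOM grafts and 17 of 42 in the TA grafts as deposited, and none higher, beside 55.8% and 30.9% of all genes lower. With libraries centred, 4 were called lower and 4 higher in EOM, beside 4.84% and 6.65% of all genes, and 5 and 2 in TA, beside 5.68% and 7.67%. Of the 6 common targets tested, Ccnd1, Myc and Tnfrsf19 were called lower in TA grafts on either scale, Myc at -2.19 and, once centred, -1.30 (adjusted p 0.00516). Myc and Tnfrsf19 were called lower in EOM grafts as deposited, Myc at -1.75, and at -0.50 once centred, not called. Ccnd1, Cd44 and Jag1 were called higher in EOM grafts once centred, Cd44 at 1.16 (adjusted p 0.0205) and Jag1 at 1.12 (adjusted p 0.00813), and as deposited Cd44 and Jag1 were at -0.09 and -0.13, not called. Tnfrsf19, a target of beta-catenin in other tissues, was lower in both on either scale, at -2.66 in EOM and -4.02 in TA once centred. Ctnnbip1, an inhibitor of the pairing of beta-catenin with Tcf factors, was higher in both once centred, by 2.13 and 1.73. Kremen1, a receptor for Dickkopf proteins, was called lower in both as deposited, at -2.46 and -2.79, and in TA alone once centred, at -1.89. Porcn, the enzyme that adds the lipid to Wnt proteins, was called lower in both as deposited, at -2.72 and -2.91, and in neither once centred, at -1.47 and -2.01.

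The last comparisons ask whether the origin of the cells still showed in the shared host, and whether the change on grafting differed between origins. Of 23 members tested between TA and EOM grafts none was called by limma, edgeR or DESeq2, and 1 had an unadjusted p under 0.05. Of all 12377 genes tested limma called none (0%), and 452 had an unadjusted p under 0.05. No member's graft groups were apart, as 0.0162% of all genes were with TA higher. Of 32 members tested for a difference in change, none was called by any of these tools and none had an unadjusted p under 0.05 in limma, where 0.0554% of 14428 genes were called higher and 0.152% lower. These shares were 0.097% and 0.0693% with libraries centred, and 0.00693% in each direction by edgeR, which called no member. DESeq2 called 67 higher and 30 lower of all 14428 genes for the difference in change, and 2 and 1 of 12377 between grafts.

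Wnt4, which separated the muscles before grafting, had a median of 36.8 RPM in EOM grafts and 10.8 RPM in TA grafts, with ranges that overlapped down to 0. Its difference between grafts was -0.70 (SE 1.23), and 3 of 6 donors were higher in TA and 3 lower. The EOM change minus the TA change was -1.46 (SE 1.26, adjusted p 0.849). With an SE of 1.23, beside 0.23 before grafting, these data neither show a remaining difference in Wnt4 between the grafts nor place a narrow limit on one. Wnt11 was too low in both grafts to be tested between them. Its changes differed by -1.57 (SE 1.16, adjusted p 0.818) in limma and by 2.81 (adjusted p 0.613) in edgeR, so that the direction turned between tools.

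Lgr5, an R-spondin receptor and a stem cell marker in other tissues, was the member with the lowest unadjusted p between grafts. It had 133, 32, 19, 5 and 4 reads in 5 of 7 EOM grafts and none in 2, and 10, 1 and 1 in 3 of 7 TA grafts. Its change from pre-graft to graft in EOM was 1.66 (SE 1.02, adjusted p 0.154) in limma and 3.26 (adjusted p 0.078) in edgeR, not called. DESeq2 called that change, at 3.36 with an adjusted p of 0.0231. The difference between grafts was -2.61 (SE 1.05), with an unadjusted p of 0.0176 by limma, and did not pass after adjustment. Of the 6 donors with both grafts 4 were lower in TA, 1 was higher and 1 had no read in either. Lrp5 was lower in TA in 6 of 6 donors, with log2 differences of -2.52 to -0.06 and a fitted difference of -0.65 (SE 0.55). Neither passed.

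Outside the members, Ccnd1 was the single gene of the wider list that limma called for a difference in change, and this with libraries centred only. It ranged from 6.84 to 102 RPM in EOM grafts and from 12.3 to 78.3 RPM in TA grafts, which overlapped, where the muscles had been apart before grafting. In TA it changed by -2.12 (SE 0.48, adjusted p 0.00343), and in EOM by 0.72 (SE 0.54, adjusted p 0.241). With libraries centred both were called, TA lower at -1.22 (adjusted p 0.0320) and EOM higher at 1.97 (adjusted p 0.0137). The difference of these changes was 2.84 (SE 0.74), with an adjusted p of 0.117 as deposited, and 3.25 with an adjusted p of 0.0146 with libraries centred. Those differences share the pre-graft libraries with the comparison in which Ccnd1 was already called.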

How the data were processed

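RNA was sequenced from sorted MuSC pools as full-length cDNA, without molecular identifiers, in 40 libraries of 10 donor mice. The 10 libraries that failed the study's quality limits were left out, and 40 bisulfite libraries were not analysed here. According to the submitters' notes the authors trimmed reads with Trim Galore and aligned them to GRCm38 with HISAT2 2.1.0. The authors deposited log2 RPM per gene, made in SeqMonk; the deposited quality table put 49.6 to 50.5% of reads on the sense strand, so the libraries carry no strand and reads of overlapping or antisense genes may not be separated. The table also deposited total read counts and a percent of mitochondrial reads per library. Whole reads were recovered from the log2 values (99.9971% whole within 0.05 of a read). The summed reads were 1.07 to 1.53 times the library size behind RPM, so RPM is on the authors' scale. Repeated gene identifiers were reduced to 1 each, leaving 25900 of 25965 entries.

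Genes above log2 RPM 1 in at least 4 libraries of a comparison were tested with limma 3.58.1 in R 4.3.3 (trend over the mean, two-sided, Benjamini-Hochberg over all genes tested). Alternatives were edgeR 4.0.16 and DESeq2 1.42.0 on recovered reads, log2 of RPM plus 1, no filter, median centring, scaling without mitochondrial genes, experiment as covariate or alone, the donor as a block, all libraries, and each library left out. Scripts were tested on simulated counts for the comparison before grafting only, which does not cover the spread and the common shift of the grafts. Groups pair by donor mouse as labelled. Deviations of same-donor libraries had median correlations of 0.178 before grafting, 0.023 and -0.044 between grafts and their own pre-graft libraries, and 0.051 between grafts.

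Members, pathway and marker lists were chosen with earlier results of these data known. Named genes are those called before grafting, between grafts or in the difference of changes, those called higher after grafting or lower both as deposited and centred, and a list of 26 central members. Any other member was named after its values were seen. Intervals and floors cover counting error only. Exon lengths and promoters are of GRCm38.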

Additional observations from a re-analysis of the deposited data

Results flagged for a closer look

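Single libraries stood apart from the rest of their group in 7 of 49 gene and group combinations tested by Dixon's limit, which chance reaches in about 1 of 20 groups. All values are log2 RPM. In the EOM graft of mouse 2 of Experiment 2, Ctnnb1 was low at 4.66, with the next library at 7.22, and Tcf7l2 was high at 6.34, with the next at 5.45. In the EOM graft of mouse 4 of Experiment 2, Fzd4 was low at 3.20. In the EOM pre-graft library of mouse 2 of Experiment 2, Fzd7 was high at 5.34 and Sfrp1 at 5.24, and the same library held 135 reads of Dkk3. Macrophage markers summed to 1760 RPM in that library and to at most 98.4 RPM in the other EOM pre-graft libraries. The part of such cells was not tested. In TA pre-graft libraries of Experiment 2, Fzd1 had no read in mouse 3, at -1.14, and Fzd5 was low in mouse 1, at 1.94.

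Reads of genes with none in the matching group appeared in libraries that the study left out, which enter no comparison above. In TA grafts of Experiment 1, Fzd9 had 11 reads and Wnt7a 16 in mouse 1, and Wnt3a had 5 and Wnt9b 22 in mouse 4. In EOM grafts of Experiment 1, Wnt3a had 7 reads in mouse 1, and Wnt5b had 17 in mouse 3 and 24 in mouse 5. In the EOM pre-graft library of mouse 3 of Experiment 2, Lgr6 had 25 reads and Wnt3 had 16. Wnt3a and Wnt9b had no read in any library that was compared.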

How the results depend on the processing

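Before grafting Wnt4 kept its call in every alternative, at -2.29 to -1.90, and the members called lower were 1 in edgeR, in Experiment 2 alone and with all libraries (Wnt4 in each), and 2 to 3 with a library left out (Sfrp1 the third). In the TA grafts the members called higher were 1 with centring, without mitochondrial genes and in DESeq2, 4 in edgeR, and 0 to 1 with a library left out. Those called lower were 0 with centring and without mitochondrial genes, 2 in edgeR, in DESeq2 and in Experiment 2 alone, and 5 to 8 with a library left out. In the EOM grafts the members called higher were 1 without a filter (Wif1), 3 with centring and in edgeR, 2 without mitochondrial genes, 5 in DESeq2, and 0 to 1 with a library left out. Those called lower were 2 with centring and without mitochondrial genes, 0 in edgeR and DESeq2, and 11 to 13 with a library left out. With the donor as a replicate block 2 members were called lower before grafting, 5 in TA and 9 in EOM grafts, beside 440 of 13217, 3222 of 13076 and 4451 of 13094 genes. The block ended the calls named in the text and no other. Over all genes, DESeq2 called 1196 higher and 546 lower of 13094 in the EOM grafts and 1151 and 545 of 13076 in the TA grafts, and scaling without mitochondrial genes 750 and 932 of 12869, and 937 and 937 of 13465. Without a filter 702 of 19836 were higher in the EOM grafts. Experiment 2 alone called 1803 of 12452 lower in the TA grafts and 295 of 12596 lower before grafting, where all libraries called 173 of 14911. Among values called in either setting, directions turned in the EOM grafts for Lrp5 (1.08 with centring, 1.01 in edgeR, 1.12 in DESeq2), Sfrp1 (1.03 in edgeR, 1.08 in DESeq2), Ctnnb1 (0.20 in edgeR, 0.33 in DESeq2) and Fzd7 (0.070 in DESeq2). Both tools rescale the libraries, and the median change of all genes was -1.48 as deposited, -0.08 in edgeR and 0.0034 in DESeq2. Relative to the deposited median, Lrp5 and Ctnnb1 lay at 1.30 and 0.18, and Sfrp1 and Fzd7 at -0.79 and -0.61. Beyond this rescaling the cause was not tested for edgeR and DESeq2. Centring moves every gene of a comparison by the same amount, so a change of sign under it says nothing of a single gene. Between grafts and for the difference of changes the count was 0 in every alternative and with each library left out. Experiment 1 alone was not run after grafting, as it held 1 library of each graft. Depth limits most ligands, inhibitors and R-spondins, which had a few reads in a few libraries.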
